A study of Mus musculus with 4 samples.

Results

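Bhlhe40 and 9 genes of the circadian clock were followed in whole mouse embryos that lack Cop1. The members are Bhlhe40, Bhlhe41, Per1, Per2, Per3, Cry1, Cry2, Nr1d1, Nr1d2 and Dbp, and they were taken as every probe set whose single listed gene symbol is one of these names. That gave 20 probe sets for 10 of the 18193 genes on the array. The Cop1KO group, called null here, was RNA of 6 Cop1-null embryos at embryonic day 9.5, mixed into 1 pool, divided into 2 portions and put on 2 arrays. The control group, titled wild-type, was RNA of 6 embryos of the same day that were +/+ or +/-, handled in the same way, so the control pool may hold heterozygous embryos. COP1 is a ubiquitin ligase that marks transcription factors for degradation. The labels name no mouse strain, no treatment, no design of the Cop1 deletion and no hour of dissection. Every difference below sets 1 RNA pool against 1 other, and the spread between arrays is that between portions of the same RNA.

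The circadian clock is a loop of transcription factors that runs in most cells of the adult body. CLOCK and BMAL1 (here under the older gene symbol Arntl) bind E-box elements and switch on the Per and Cry genes, whose proteins return to the nucleus and block them. In a second loop the REV-ERB receptors, encoded by Nr1d1 and Nr1d2, repress Arntl and the ROR receptors activate it. BHLHE40 and BHLHE41, also called DEC1 and DEC2, are repressors that compete for the same E-boxes, and Bhlhe40 is also a gene switched on by low oxygen and by growth signals. DBP is an activator of D-box elements and a classical output of the clock. In early embryos the rhythm of this loop is weak or absent, while many of its genes are already transcribed. In the plant Arabidopsis, cryptochromes bind COP1 and inhibit it.

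The Cop1 probe set, which checks the labels, read 9.67 and 9.77 on the null arrays, against 11.35 and 11.26 on the control arrays (log2 expression), a difference of -1.58 (SE 0.08, limma, adjusted p = 0.000728). The position of this probe set relative to the deletion was not analysed here. The median log2 value of all probe sets was 6.09 and 6.09 on the null arrays, against 6.03 and 6.03 on the control arrays. Markers of the embryo's own tissues read at unequal levels. Myl7 of heart muscle read 11.12 and 11.12 on the null arrays, against 11.15 and 11.18 on the control arrays. Tbx6, from the somite list, read 5.04 and 5.07 on the null arrays, against 5.09 and 4.94 on the control arrays. Tbx6 differed by 0.04 log2 units, unlike Pax1 (-1.59), Myf5 (-0.72), Tcf15 (-0.64) and Meox1 (-0.52) of the same list. Levels of different probe sets do not compare amounts of tissue. The upper quartile of all probe sets was 8.11 to 8.19 over the 4 arrays. Myl7 and Tbx6 were named after their values were seen. Among the markers 0 of 5 heart muscle genes and 0 of 4 primitive erythroid genes passed the test described below, 1 of 5 neural tube genes (Nes) was lower in the null pool, and 3 of 5 somite genes were lower too, with summed linear levels of 871 to 894 on the null arrays, against 1418 to 1420 on the control arrays. Of 5 yolk sac endoderm genes, 2 (Afp and Ttr) were lower, with summed levels of 2186 to 2223 on the null arrays, against 4292 to 4459 on the control arrays. Afp was the brightest of the 5 and weighs most in that sum. Apoa1 (-0.01), Apob (0.05) and Apoa4 (0.38) of the same list were not called. Of 2 measured trophoblast genes 1, Ascl2 (0.64), was higher. The summed levels of both were 80.0 to 91.5 on null arrays and 52.0 to 64.9 on control arrays. Of 3 decidua genes 0 were called. The trophoblast gene Tpbpa and the decidua genes Prl8a2 and Prl3c1 read 3.25 to 3.65 (log2). That is under the lower quartile of each array (4.39 to 4.47), where a difference may not show. The part of these tissues in the differences below was not tested, and fewer cells of a type cannot be told apart from less RNA per cell.

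Bhlhe40 stood far apart from the other members. It read 10.77 and 10.65 on the null arrays, against 7.84 and 7.81 on the control arrays (log2 expression). Both null arrays thus lay above both control arrays by 2.81 to 2.96 log2 units, depending on which arrays are paired. The group means were 10.71 ± 0.08 in the null pool and 7.82 ± 0.03 in the control pool (SD, n = 2 portions), a difference of 2.88 log2 units (SE 0.07), or 7.38-fold. Among 18193 genes this was number 8 in the order of rises. The members were selected on this contrast, since Bhlhe40 was chosen by its null minus control difference in an earlier analysis of the same arrays and the clock genes were added to it. Their values are therefore given as a description with no test.

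Bhlhe41, the paralogue with the same repressor fold, differed far less. Its brighter probe set read 5.73 and 5.88 on the null arrays, against 5.45 and 5.27 on the control arrays (log2), a difference of 0.45 (SE 0.10). Its dimmer probe set differed by 0.38 (SE 0.11). Null arrays were above control arrays on both probe sets without overlap.

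**Figure D1:**
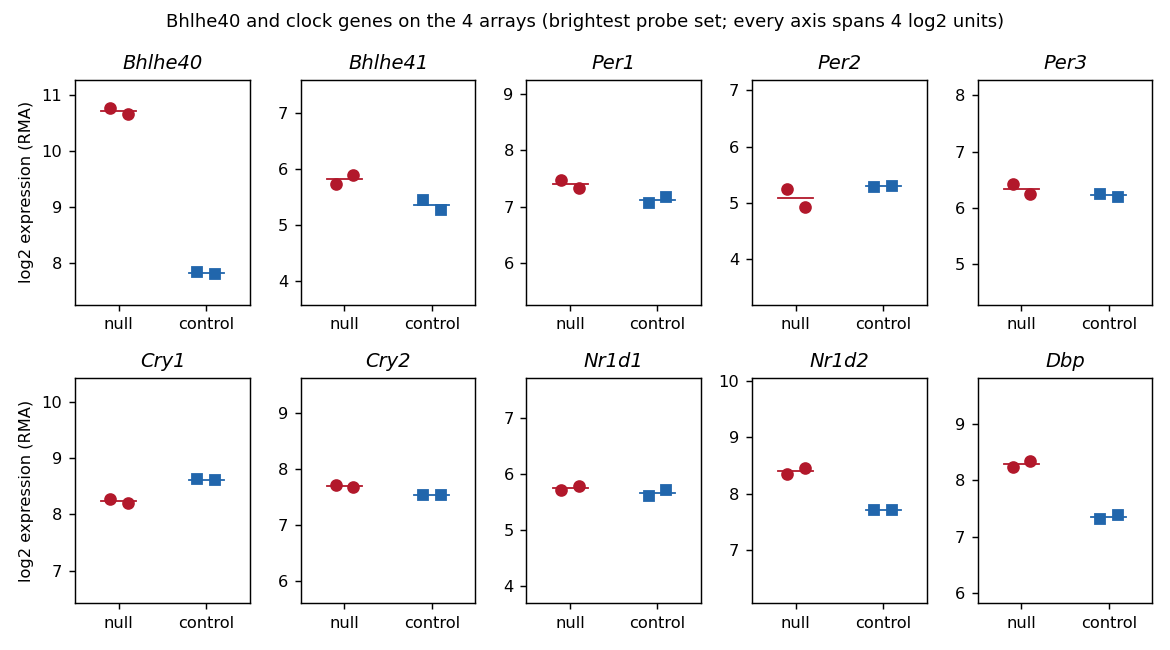
Log2 expression (vertical axes, each spanning 4 log2 units) of the brightest probe set of each of the 10 genes on the 2 null arrays (red circles, left) and the 2 control arrays (blue squares, right), with lines at the means. Bhlhe40 is separated by 2.88 log2 units, Dbp by 0.94 and Nr1d2 by 0.69, Cry1 lies lower in the null pool by 0.39, and the other genes differ by at most 0.45.

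The output gene and the REV-ERB beta gene came next. Dbp read 8.24 and 8.34 on the null arrays, against 7.31 and 7.38 on the control arrays (log2, brighter probe set). The difference was 0.94 log2 units (SE 0.07), or 1.92-fold, and the other Dbp probe set differed by 0.47 (SE 0.09). Both Dbp probe sets were higher on each null array than on either control array, by unequal amounts. Nr1d2, which encodes REV-ERB beta, read 8.34 and 8.46 on the null arrays, against 7.71 and 7.70 on the control arrays (log2). Its difference was 0.69 (SE 0.07), or 1.62-fold, and its dimmer probe set differed by 0.38 (SE 0.13). Nr1d1, which encodes REV-ERB alpha, did not show a gap of that size, as its single probe set read 5.72 and 5.78 on the null arrays, against 5.61 and 5.71 on the control arrays, a difference of 0.09 (SE 0.07). Over the 4 pairs of a null with a control array the differences of Nr1d1 ran from 0.01 to 0.17, and those of Nr1d2 from 0.63 to 0.76.

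The Period and Cryptochrome genes, which form the repressing limb of the loop, had small differences in both directions. Per1, the Period gene that also responds acutely to hormones and to cAMP, read 7.48 and 7.32 on the null arrays, against 7.06 and 7.17 on the control arrays (log2), a difference of 0.29 (SE 0.09). Per2 read 5.25 and 4.92 on the null arrays, against 5.29 and 5.30 on the control arrays, a difference of -0.21 (SE 0.12) on its brightest probe set, while its other 2 probe sets read 0.10 (SE 0.11) and 0.10 (SE 0.11) with overlapping arrays. No direction can be given for Per2, whose 3 probe sets all lie among the dimmest 40% of the array. Cry1 was the member with the most negative difference, reading 8.27 and 8.20 on the null arrays, against 8.63 and 8.60 on the control arrays (log2), a difference of -0.39 (SE 0.06). Cry2, its paralogue, read 7.71 and 7.68 on the null arrays, against 7.55 and 7.53 on the control arrays, a difference of 0.16 (SE 0.06). The 2 cryptochromes thus lay on opposite sides of 0, although the sign of Cry2 turned to -0.10 when arrays were centred on the poly-A spikes.

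Per3 shows how far probe sets of the same gene can part. Its brightest probe set read 6.43 and 6.25 on the null arrays, against 6.24 and 6.20 on the control arrays (log2), a difference of 0.12 (SE 0.08). Of the other 5 Per3 probe sets, 4 differed by 0.02 to 0.23. The remaining probe set read 5.46 and 5.33 on the null arrays, against 4.88 and 4.47 on the control arrays, a difference of 0.72 (SE 0.15). The control arrays are 0.41 apart on that probe set, which is dimmer than the median of the array.

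**Figure D2:**
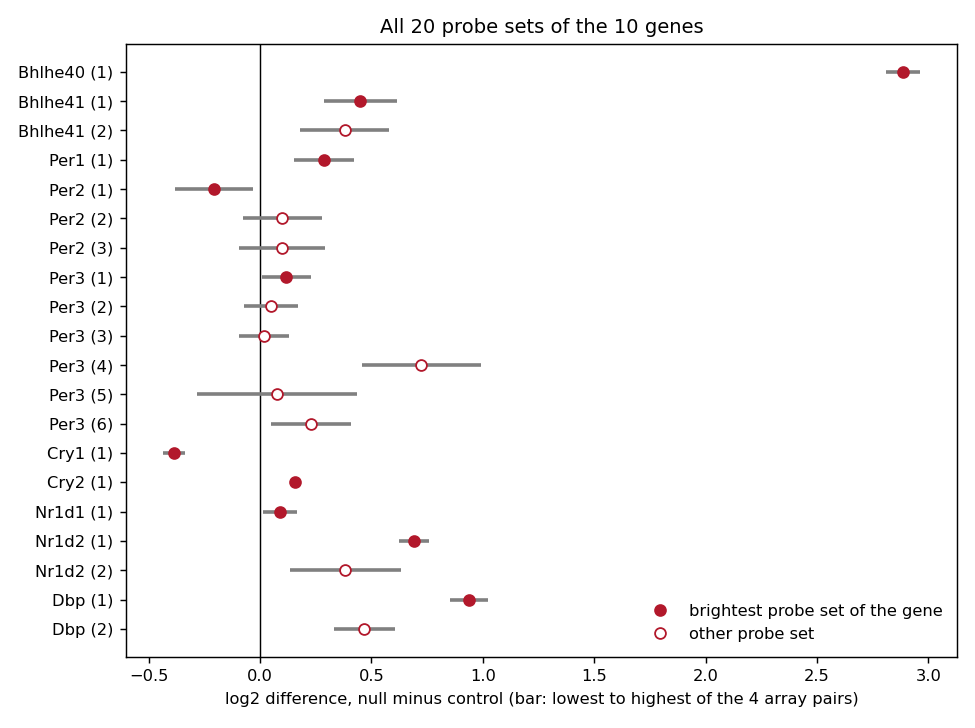
Log2 difference, null minus control (horizontal axis), for the 20 probe sets, numbered from the brightest within each gene, with bars over the lowest to the highest of the 4 array pairs. Filled points are the brightest probe sets. Bhlhe40 lies at 2.88, and every other probe set lies between -0.39 and 0.94.

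Over the brightest probe sets, 8 of 10 genes had both null arrays above both control arrays and 2, Per2 and Cry1, had both below. Of all 18193 genes, 28.9% had both null arrays above and 39.3% had both below. By probe set 13 of 20 were above, 2 below and 5 overlapped, beside 32.6% of all probe sets above and 32.7% below. The limits used for calls on other genes, an adjusted p under 0.05 in limma and a fold of at least 1.5, were passed upward by 3 of the 10 genes (Bhlhe40, Nr1d2 and Dbp), where 3.58% of all genes did so, and downward by 0, where 8.06% of all genes did so. By probe set 4 of 20 passed upward, against 6.76% of all 45037 probe sets, and 0 downward, against 6.96%. Nothing is read from these shares, because the contrast was known when the genes were chosen. The median difference of the 10 genes was 0.22 log2 units, and it was 0.16 for the 9 genes other than Bhlhe40, beside a median of -0.02 over all genes. Centring on the poly-A spikes moved the median of all genes by -0.26. By its construction it lowers every difference by the same amount, which put Bhlhe40 at 2.63, Dbp at 0.68 and Nr1d2 at 0.43 and turned the signs of Per3 to -0.14, Nr1d1 to -0.17 and Cry2 to -0.10. The median spike level was 7.52 and 7.71 on the null arrays, against 7.23 and 7.49 on the control arrays. Spikes thus differed between portions of the same pool too.

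Promoter windows from RefSeq (build GRCm38.p6, 250 bases before to 50 bases after an annotated start, 300 in all) were in the table for 8 of the 10 genes, in 9 windows, and not for Bhlhe40 and Per2. They were searched on both strands for the elements of the clock and of stress inputs. The E-box CACGTG, which CLOCK, BMAL1 and the BHLHE40 family bind, was in 3 of 8 genes, Bhlhe41, Per1 and Cry1, and in 7.15% of 32851 windows in the whole table. Those windows follow first, with the E-boxes in capitals and, in Cry1, also the E-prime box CACGTT, which reads AACGTG on the gene's strand. Per3 is shown for its 2 copies of the D-box TTATGTAA, the element that DBP, TEF, HLF and NFIL3 share, found in 0.938% of all windows and in no other member window. Ciart, a clock repressor gene described below, is shown for its 3 E-boxes. CACGTG also stood in windows of the clock genes Cipc, Sirt1 and Tef, which differed by -0.68, -0.06 and 0.55 log2 units. No hit was found in windows of Rora, Nfil3 and Nampt, which rose. Whether the E-box goes with a difference in these genes was not tested.
Bhlhe41, chr6:145865371-145865670, minus strand: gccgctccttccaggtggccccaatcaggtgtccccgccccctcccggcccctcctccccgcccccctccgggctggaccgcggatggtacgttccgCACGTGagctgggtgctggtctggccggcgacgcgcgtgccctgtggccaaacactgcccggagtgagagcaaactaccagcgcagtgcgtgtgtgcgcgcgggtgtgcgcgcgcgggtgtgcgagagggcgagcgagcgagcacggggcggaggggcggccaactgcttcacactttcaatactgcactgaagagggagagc
Per1, chr11:69098699-69098998, plus strand: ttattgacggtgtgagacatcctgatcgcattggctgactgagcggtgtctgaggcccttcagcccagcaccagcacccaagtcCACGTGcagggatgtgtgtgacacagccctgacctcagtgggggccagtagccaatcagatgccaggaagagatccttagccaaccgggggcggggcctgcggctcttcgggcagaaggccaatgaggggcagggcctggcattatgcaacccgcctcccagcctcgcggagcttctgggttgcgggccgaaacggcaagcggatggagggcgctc
Cry1, chr10:85185005-85185304, minus strand: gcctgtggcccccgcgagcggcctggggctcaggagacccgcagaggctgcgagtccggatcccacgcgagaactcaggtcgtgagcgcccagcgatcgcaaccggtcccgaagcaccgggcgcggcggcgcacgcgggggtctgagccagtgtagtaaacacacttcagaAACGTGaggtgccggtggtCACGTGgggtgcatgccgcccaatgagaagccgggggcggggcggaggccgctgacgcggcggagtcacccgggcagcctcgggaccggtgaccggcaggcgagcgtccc
Per3, chr4:151044616-151044915, minus strand: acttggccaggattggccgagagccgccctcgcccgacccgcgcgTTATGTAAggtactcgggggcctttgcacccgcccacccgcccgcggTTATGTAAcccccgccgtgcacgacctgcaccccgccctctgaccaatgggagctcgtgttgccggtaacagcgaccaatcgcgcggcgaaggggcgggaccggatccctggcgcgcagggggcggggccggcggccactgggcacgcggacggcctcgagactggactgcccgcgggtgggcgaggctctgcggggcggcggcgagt
Ciart, chr3:95882179-95882478, minus strand: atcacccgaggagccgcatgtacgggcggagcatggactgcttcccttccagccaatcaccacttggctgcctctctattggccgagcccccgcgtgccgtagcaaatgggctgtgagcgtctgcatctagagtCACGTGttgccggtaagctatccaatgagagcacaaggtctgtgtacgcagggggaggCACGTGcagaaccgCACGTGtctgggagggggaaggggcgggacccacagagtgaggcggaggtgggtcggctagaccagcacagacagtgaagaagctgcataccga
The E-box lies 153 bases before the annotated start in Bhlhe41, 166 bases before it in Per1 and 60 bases before it in Cry1, with the E-prime box of Cry1 at 79 bases. Per1 has a further window, at another annotated start, that holds no CACGTG. The D-boxes of Per3 lie 205 and 158 bases before the start, and the E-boxes of Ciart at 116, 58 and 44 bases.

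Whether the E-box goes with the direction of a member was not tested. Among the 8 genes with a window only Cry1 was lower, and E-boxes outside the windows were not searched for. Of the 3 genes with an E-box in a window, Bhlhe41 and Per1 were higher by 0.45 and 0.29 and Cry1 lower by 0.39 on the log2 scale. Dbp and Nr1d2, whose windows hold no CACGTG, had the next greatest differences after Bhlhe40. The E-prime box stood in Cry1, Cry2 and Nr1d1 (3 of 8 genes, and 4.68% of all windows). The ACGTG core of hypoxia response elements, which every CACGTG contains and so does every CACGTT, stood in 6 of 8 genes, against 19.6% of all windows. The core GCGTG stood in 8 of 8 genes and in 8 of their 9 windows, against 32.4% of all windows. A gene was counted if any of its windows held the element. AGGTCA, only a part of the element read by REV-ERB and ROR receptors, stood in Per1 and Nr1d2, against 16.3% of all windows. The full element was not searched for. The cAMP response element TGACGTCA, the ATF4 element TGATGNAA and the AP-1 site TGANTCA stood in the windows of 0 of the 8 genes. Their shares of all windows were 1.79%, 3.97% and 7.81%. No element was searched for outside the windows, so its absence from a gene cannot be told. A match is a stretch of letters and does not show binding.

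The clock genes outside the 10 members were tested with limma over all 45037 probe sets, each gene by its brightest probe set. Of 31 measured genes, 4 rose, 2 fell and 25 did not pass, beside 3.58% of all genes that rose and 8.06% that fell. Their median difference was 0.03, against -0.02 for all genes. The rises were those of Rora, Nfil3, Ciart and Nampt, and the falls those of Arntl and Cipc.

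Rora, which encodes the ROR alpha receptor that activates Arntl, had the greatest rise among them. It read 8.54 and 8.67 on the null arrays, against 6.23 and 6.13 on the control arrays (log2), a difference of 2.42 (SE 0.08), or 5.36-fold (limma, adjusted p = 0.000549). Of the 9 Rora probe sets 5 rose, and of the other 4 in this count 3 differed by 2.05 to 2.27 and 1 by 0.94. The remaining 4 were not called and differed by 0.01 to 0.48, so that the Rora difference depends strongly on the probe set.

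Arntl, the gene of BMAL1, fell. It read 6.51 and 6.30 on the null arrays, against 7.12 and 7.23 on the control arrays (log2), a difference of -0.77 (SE 0.10, limma, adjusted p = 0.00544). Its dimmer probe set differed by -0.02 (SE 0.09), and the mean of both was -0.40, which is under the fold limit. Its partner Clock was not called on its brightest probe set, which read 7.33 and 7.46 on the null arrays, against 7.11 and 7.10 on the control arrays, a difference of 0.29 (SE 0.07). A further Clock probe set read 7.29 and 7.42 on the null arrays, against 5.05 and 5.17 on the control arrays, a difference of 2.25 (SE 0.08, limma, adjusted p = 0.000566), whereas the remaining 2 differed by -0.18 and -0.25. Npas2, the paralogue of Clock, differed by 0.12 (SE 0.09), and Rorb, which encodes ROR beta, by 0.18 (SE 0.09), both without a call.

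Among the D-box factors Nfil3, the repressor that opposes DBP at D-boxes, rose. It read 8.73 and 8.90 on the null arrays, against 7.995 and 8.006 on the control arrays (log2), a difference of 0.81 (SE 0.08), or 1.76-fold (limma, adjusted p = 0.00278). Tef, an activator related to Dbp, read 8.93 and 8.87 on the null arrays, against 8.33 and 8.38 on the control arrays, a difference of 0.55 (SE 0.07) that lay just under the fold limit on all 3 of its probe sets. Hlf, the third activator of that family, differed by -0.34 (SE 0.12) without a call. The activator Dbp and the repressor Nfil3 of the D-box were thus both higher in the null pool.

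Ciart, whose product binds and represses CLOCK and BMAL1, read 8.60 and 8.71 on the null arrays, against 7.43 and 7.19 on the control arrays (log2). It rose by 1.35 (SE 0.11), or 2.54-fold (limma, adjusted p = 0.00164). Cipc, which encodes another inhibitor of CLOCK, went the other way, reading 8.80 and 8.70 on the null arrays, against 9.44 and 9.42 on the control arrays, a difference of -0.68 (SE 0.07, limma, adjusted p = 0.00297). The other 17 of 19 measured modifiers and cofactors, among them casein kinases that phosphorylate PER proteins and adaptors of ubiquitin ligases, were not called on their brightest probe set. Of the 4 measured output genes, Nampt, the enzyme gene of NAD salvage, rose. It read 11.01 and 11.00 on the null arrays, against 9.80 and 9.78 on the control arrays, a difference of 1.22 (SE 0.06, limma, adjusted p = 0.00077). The other 2 Nampt probe sets differed by 0.50 and 0.36, under the fold limit, and were not called.

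**Figure D3:**
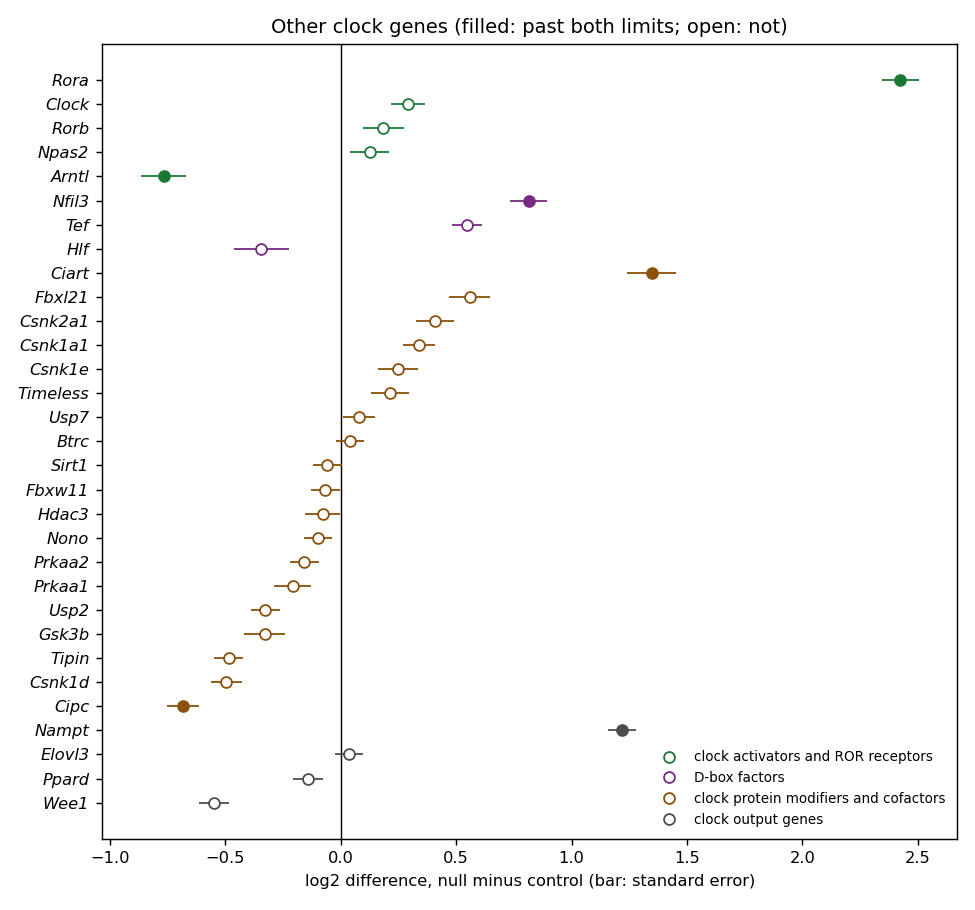
Log2 difference, null minus control (horizontal axis, bars are standard errors), of the brightest probe set of 31 clock genes outside the 10 members, coloured by group, with genes past both limits filled. Rora (2.42), Ciart (1.35), Nampt (1.22) and Nfil3 (0.81) lie to the right and Arntl (-0.77) and Cipc (-0.68) to the left.

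Of 23 such genes with several probe sets, 3 had probe sets called in both directions. They were Csnk1d, with 1 rise and 2 falls among 5 probe sets, Gsk3b, with 2 rises and 1 fall among 6, and Usp7, with 1 rise and 1 fall among 7. Of all probe sets, 6.76% were called higher and 6.96% lower. The share of all genes called in both directions was not taken, so the count is not read as a trait of clock genes. Csnk1d, Gsk3b and Usp7 were chosen after their values were seen. For Csnk1a1, another casein kinase gene, 2 of 5 probe sets rose, by 1.51 and 2.31, while its brightest one differed by 0.34 without a call; it too was named after its values were seen. Where the probe sets lie in their transcripts was not analysed here.

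**Figure D4:**
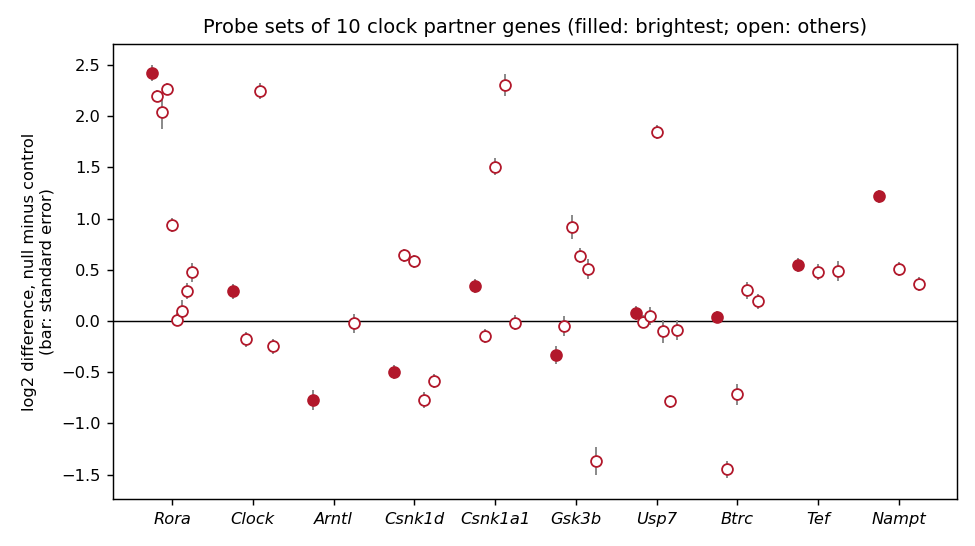
Log2 difference, null minus control (vertical axis, bars are standard errors), of every probe set of 10 clock partner genes, chosen after their values were seen, with the brightest filled. Rora has 4 probe sets above 2 and 5 between 0.01 and 0.94, Clock has 1 at 2.25 with the others between -0.25 and 0.29, and Csnk1d, Gsk3b and Usp7 spread to both sides of 0.

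Relatives and reported targets of BHLHE40 were examined with 2 input pathways to Per1, and 2 of 29 measured genes rose and 7 fell, where 3.58% of all genes rose and 8.06% fell. The bHLH-Orange relatives, repressors that mostly act below Notch, held 0 rises and 3 falls among 9, a count to be read against the same shares of all genes. Heyl read 5.44 and 5.65 on the null arrays, against 7.09 and 7.10 on the control arrays (log2), a difference of -1.55 (SE 0.09), and Hes6 (-0.91, SE 0.06) and Hes5 (-0.75, SE 0.06) fell as well, with limma adjusted p-values of 0.000935 to 0.00203. All probe sets of these 3 genes were called lower. Of the 5 somite markers, 3 were lower in the same pool, as given above, and their part in these falls was not tested. Of 8 measured genes that BHLHE40 is reported to regulate in other cells, Ccnd1, the cyclin D1 gene, fell by 0.91 on the log2 scale and Rxra, a retinoid X receptor gene, by 0.61, and 0 rose. Rxra lost its call on the mean of its 3 probe sets (-0.14).

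Most genes of the input pathways to Per1 were not called. Of 5 glucocorticoid-induced genes, Zbtb16, a zinc finger gene, rose by 0.92 and Sgk1, a kinase gene, fell by 0.75 on the log2 scale. Of 7 CREB-induced genes, the nuclear receptor gene Nr4a1 rose by 0.83 and its relative Nr4a2 differed by -0.77 on its brightest probe set, with the other 5 Nr4a2 probe sets uncalled. Median differences were 0.03 and 0.04 for these lists, against -0.02 over all genes.

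The 5 genes most like Bhlhe40 over the 4 arrays were found as those with the smallest Euclidean distance between values centred on each gene's own mean, among 18192 other genes. With 4 arrays from 2 pools this likeness reflects mainly a difference of the same size. They were the chaperone gene Hspa1a (distance 0.12 log2 units), the cationic amino acid transporter gene Slc7a3 (0.12), the glycolytic phosphofructokinase gene Pfkp (0.13), the immediate early gene Ier3 (0.18) and the noncoding RNA gene Malat1 (0.24). Their differences lay between 2.73 for Malat1 and 2.93 for Pfkp, with Bhlhe40 at 2.88. None of the other 9 members, and of the other clock genes only Rora, came within 1 log2 unit of that difference by brightest probe set.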

How the data were processed

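Gene expression was measured on 4 Affymetrix arrays, 2 of the Cop1-null pool and 2 of the control pool, grouped by their titles. The authors deposited log2 values. The submitters' processing notes name RMA and affy without versions. RMA scales arrays to one another, so total RNA per embryo is not measured here. No depth applies to arrays, and their number limits the precision.

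Of the probe sets, 64 controls were left out and 45037 were tested, of which 34945 have 1 listed gene, 932 several and 9160 none. The brightest probe set by mean over the 4 arrays stood for each of 18193 genes. limma 3.58.1 in R 4.3.3 (lmFit, eBayes, genotype as the only term, 2 residual degrees of freedom) gave two-sided p-values with Benjamini-Hochberg adjustment over all tested probe sets. A call needed an adjusted p under 0.05 and a fold of at least 1.5. The fit was tested on simulated data. P-values measure only the spread between portions of a pool.

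The members and lists were chosen with earlier results of these data known. Of 112 genes on the lists, 99 were measured, 1 of them (Arntl) matched through its gene number in the RefSeq table of GRCm38.p6. Named are the members, Cop1, all clock activators, ROR genes and D-box factors, up to 4 called genes of each other list and the 5 nearest to Bhlhe40. The genes whose probe sets disagreed and the tissue markers given by level were named after their values were seen. The rest of the somite markers and the yolk sac endoderm markers were named to complete their lists. Alternatives were leaving out each array, a replicate block, quantile normalization once more, poly-A spike centring, an intensity trend, leaving out the dimmest 40% of probe sets, no fold limit and the mean of all probe sets.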

Additional observations from a re-analysis of the deposited data

How the results depend on the processing

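Over 36 results there were 354 comparisons with an alternative, of which 27 could not move an untested value by their construction. Of the other 327, 292 kept direction and call or moved by less than the spread between portions, and 0 reversed a called direction. Leaving out each array in turn gave 2.83 to 2.94 for Bhlhe40, 0.18 to 0.29 for the median of the 10 members, 4 to 5 rises and 2 to 3 falls among the other clock genes, 2 to 3 rises and 6 to 7 falls among the related lists, and -1.63 to -1.53 for Cop1. The lone array left in a group was then assumed to vary like the other group. Poly-A spike centring gave 2.63 for Bhlhe40, -0.034 for the member median, 7 falls among the other clock genes and 1 rise among the related lists. With no fold limit 9 other clock genes rose and 7 fell, and 5 genes of the related lists rose. With the mean of all probe sets 1 other clock gene fell, and it was neither Arntl (-0.40) nor Cipc (-0.56), which were both under the fold limit. When any probe set could carry the call, chosen after seeing the data, 12 other clock genes rose and 7 fell. Shares of all genes were not taken under the alternatives. The counts with no fold limit and with any probe set are therefore not read as results about the clock. In this balanced design the replicate block and the intensity trend cannot change a difference (2.88 for Bhlhe40 with the block), only its test. With the block 4 other clock genes rose and 2 fell, and 2 genes of the related lists rose and 7 fell. Portions with the same number deviated together with a correlation of only 0.06, so the numbers were not taken to pair the portions. Tef passed the limits with quantile normalization once more (0.61), as did Hlf with spike centring (-0.60). Nfil3 (0.56) and Nr4a1 (0.57) fell under the fold limit with spike centring. Cipc (-0.56) did so on the mean of its probe sets, where Nr4a2 (-0.14) lost its call too, and Rxra did so with quantile normalization once more (-0.55) and without null replicate 1 (-0.57). The dim filter removed 10 of the 20 member probe sets, among them all of Per2.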

Other observations

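Several regulators and partners of PER proteins, and the clock output gene Wee1, held calls on probe sets other than the brightest. Of all 45037 probe sets, 6.76% were called higher and 6.96% lower. Btrc, which encodes a ubiquitin ligase adaptor for PER proteins, had 2 of 5 probe sets called lower (-1.45 and -0.72), with its brightest at 0.04. Its paralogue Fbxw11 had 1 of 5 called higher (0.83), with the brightest at -0.07. Csnk2a1, a casein kinase 2 subunit gene, had 2 of 6 called higher (0.60 and 0.60) and 0 lower. Nono, an RNA-binding partner of PER proteins, had 1 of 4 called higher (1.21) and the other 3 between -0.10 and 0.06. Wee1, a mitotic kinase gene under clock control in liver, differed by -0.55 on its brightest probe set and by -0.68 on the other, which was called lower. All are limma calls at the limits used above. The genes were chosen after their values were seen, so nothing is read from how many probe sets were called.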
